A study of Mus musculus with 6 samples.

Results

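Water channels and the enzymes that interconvert carbon dioxide and bicarbonate were examined in lungs of mice with airway expression of IL13. The set held 5 aquaporin genes, Aqp1, Aqp3, Aqp4, Aqp5 and Aqp9, and 3 genes of the carbonic anhydrase family, Car2, Car8 and Car12. Every probe set annotated to 1 of these 8 symbols was taken, which gave 18 of the 45037 probe sets of the deposited table. Aqp3 was read by 4 probe sets, Aqp4, Car8 and Car12 by 3 each, Aqp9 by 2, and Aqp1, Aqp5 and Car2 by 1 each. The values were log2 RMA values, in which a step of 1 is a doubling of the hybridisation signal.

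The study profiled the left upper lung lobe of C57BL/6 mice aged 6 to 10 weeks on Affymetrix whole-genome mouse arrays. The IL13 group was CC10-rtTA-IL13 transgenic (TG, 2 mice, 1 array each), whose CC10 promoter, active in club cells, makes an activator that needs doxycycline to switch on IL13. The control group was wildtype (WT, 4 mice, 1 array each), and both groups drank doxycycline at 2 mg/mL for 7 days. The labels call the arrays biological replicates, and no group carrying the activator without IL13 was analysed here. The comparison asks what a week of airway IL13 changes in whole-lung RNA.

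Aquaporins are membrane pores that let water cross cells along an osmotic gradient, and the aquaglyceroporins among them also pass glycerol. In lung, Aqp5 lies in the apical membrane of alveolar type I cells, Aqp1 in capillary endothelium, and Aqp4 in the basolateral membrane of airway epithelium, while Aqp3 is known from basal cells of the airway and Aqp9 from leukocytes and liver. Carbonic anhydrases hydrate carbon dioxide to bicarbonate and a proton, which serves gas exchange, pH control and the bicarbonate secretion that hydrates airway mucus.

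As a check of the material, the alveolar type II gene Sftpc (15.15 in transgenic and 15.12 in wild-type means), the alveolar type I gene Ager (14.41 and 14.78) and the club cell gene Scgb1a1 (14.84 and 15.03) were bright in both groups. The Il13 probe set lay below the array median throughout, at 4.09 to 4.24 on transgenic and 3.72 to 4.03 on wild-type arrays, and did not pass (difference 0.32 ± 0.12, SE, limma adjusted p = 0.113 over all genes). Among wild-type arrays 2 stood apart in cell type markers. Wild-type replicate 2 had a summed goblet cell marker level of 4120, against 774 to 1290 on the other wild-type arrays and 3040 to 4600 on transgenic arrays. Clca1 was the largest part of the wild-type sum (42.9%), and its value of 11.44 on that array lay between those of the transgenic arrays (10.98 and 11.81). Of the 7 goblet cell markers 0 passed in limma (2 higher at an unadjusted p under 0.05), with a median log2 difference of 0.05. Wild-type replicate 4 had the highest summed level of adipocyte and of striated and cardiac muscle markers. Without these 2 arrays 4 of the 18 probe sets described below were higher and 1 was lower, the change being the end of the call of Car8 1424958_at (0.77, limma adjusted p = 0.0724).

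Aqp9 and the carbonic anhydrase genes Car2 and Car8 were higher in transgenic lungs, and Aqp4 was lower. Of the 18 probe sets 5 rose and 1 fell at an adjusted p under 0.05 (limma, Benjamini-Hochberg over all probe sets), and 12 did not pass. Of all probe sets 11.4% passed in either direction, 5.39% as higher and 5.99% as lower. The median log2 difference of the 18 was 0.24, and that of all probe sets 0.01. In 9 of the 18 the transgenic and wild-type values did not overlap, against 34.7% of all probe sets. On every array 8 of the 18 probe sets lay below the array median (5.28 to 5.31) and 8 reached a log2 value of 6 in at least 2 arrays. An exact permutation test of 1 probe set over the 15 splits of 6 arrays cannot go below p = 0.133 (two-sided), so it could give no call. The limma calls rest on its model of the values, in which variance is pooled over probe sets. By the authors' deposited table, a q-value under 0.05 was reached by 2 of the 18, 1 probe set of Aqp4 (0.0427) and 1 of Car8 (0.0432), and by 1.88% of all probe sets.

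**Figure D1:**
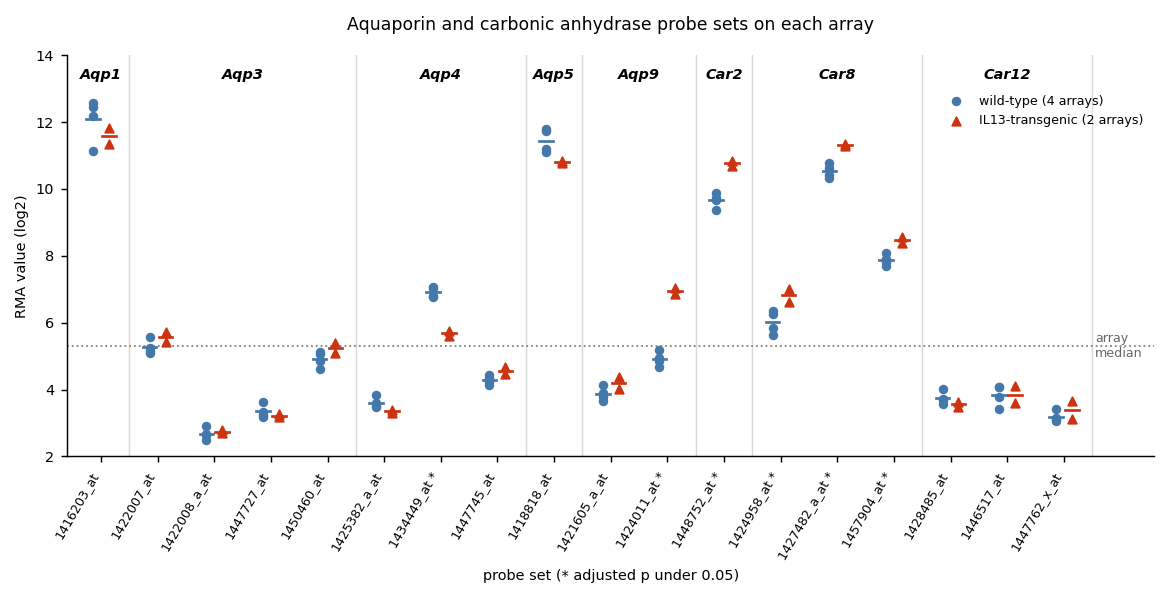
Log2 RMA value of each of the 18 probe sets (horizontal axis, grouped by gene) on each array, with wild-type arrays as blue circles, transgenic arrays as red triangles and group means as short lines; an asterisk marks an adjusted p under 0.05 and the dotted line is the mean of the array medians. Aqp9 1424011_at, Car2 and the 3 Car8 probe sets sit higher in both transgenic arrays, Aqp4 1434449_at sits lower, and the 3 Car12 probe sets stay below the dotted line.

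Aqp9, an aquaglyceroporin, changed most among the 8 genes. Probe set 1424011_at read 7.05 and 6.86 on transgenic arrays 1 and 2, and 4.94, 5.18, 4.69 and 4.85 on wild-type arrays 1 to 4. Both transgenic values lay above all wild-type values, with a gap of 1.67 between the groups. The log2 difference was 2.04 ± 0.15 (SE, n = 2 and 4), or 4.1-fold, and rose past the threshold (limma adjusted p = 0.000105). All wild-type values lay below the array median, so the difference may be understated. It stayed between 1.94 and 2.13 and past the threshold with any 1 array left out. The authors' deposited table gives this probe set a q-value of 0.157. The other Aqp9 probe set, 1421605_a_at, stayed below the array median in both groups, at 4.03 and 4.39 against 3.66 to 4.14, and did not pass (0.34 ± 0.16, adjusted p = 0.249). With both probe sets averaged the Aqp9 difference was 1.19 and passed (limma adjusted p = 0.000368 over all genes).

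Macrophage markers rose on the same arrays as Aqp9, and neutrophil markers did not pass. Of 10 macrophage markers 9 rose and 0 fell, with a median log2 difference of 3.36, and their summed linear level was 19100 to 20400 in transgenic and 4130 to 4440 in wild-type arrays. None of the 10 lay below the array median on all arrays. Of 8 measured neutrophil markers 0 rose and 0 fell in limma at the adjusted threshold, and 0 reached an unadjusted p under 0.05. Their summed level of 3020 to 3990 in transgenic arrays lay within the wild-type range of 1480 to 4180. The neutrophil markers Cxcr2, Ngp, Camp and Mpo lay below the array median on every array. The part of either cell type in the Aqp9 result was not tested. In whole-lung RNA, a change in the number of cells of a type and a change in RNA per cell cannot be told apart.

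Aqp3, the other aquaglyceroporin of the set, gave no call. Its 2 brighter probe sets were 1422007_at, at 5.42 and 5.72 in transgenic and 5.24, 5.56, 5.16 and 5.08 in wild-type arrays, and 1450460_at, at 5.39 and 5.09 against 4.85, 4.62, 5.06 and 5.12. In both the groups overlapped, and the differences were 0.31 ± 0.16 (limma adjusted p = 0.275) and 0.33 ± 0.17 (0.271). The other 2 probe sets read 2.50 to 3.63 on all arrays. Of 7 basal cell markers 0 passed in limma (1 at an unadjusted p under 0.05, Trp63), and Krt14, Krt17, Trp63 and Ngfr lay below the array median on every array.

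Aqp4, a water-selective channel, fell by its brightest probe set. Probe set 1434449_at read 5.61 and 5.75 on transgenic arrays, against 7.05, 7.06, 6.77 and 6.79 on wild-type arrays. The groups were separated by 1.02, and the spread within each was far smaller (wild-type SD 0.16). The log2 level dropped by 1.24 (SE 0.13, a 2.37-fold fall), with a limma adjusted p of 0.000773. With any 1 array left out the difference ran from -1.31 to -1.17 and passed each time. The other 2 Aqp4 probe sets were dim and did not pass. Probe set 1425382_a_at differed by -0.26 ± 0.13 (limma adjusted p = 0.277), with both transgenic values, 3.31 and 3.38, just below the wild-type minimum of 3.48. Probe set 1447745_at differed by 0.28 ± 0.13 (0.236), with both transgenic values, 4.68 and 4.46, just above the wild-type maximum of 4.45. With the 3 probe sets averaged the difference was -0.41 and passed (limma adjusted p = 0.0336 over all genes). The size of the Aqp4 fall thus rests on 1 of 3 probe sets, and the other 2 lay below the array median on every array.

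Beside Aqp4, some markers of club cells of the airway were lower. Of 7 club cell markers 3 fell and 0 rose, where 10.5% of all genes fell. The fallen ones were Scgb3a2 (-1.58 ± 0.18), Cyp2f2 (-1.63 ± 0.31) and Aldh1a1 (-1.01 ± 0.12). Scgb1a1, 39.8% of the wild-type sum, gave -0.19 ± 0.14 and Hp 0.80 ± 0.36, and neither passed. The summed level was 48900 to 60200 in transgenic and 72400 to 96700 in wild-type arrays. Of 8 ciliated cell markers 1 fell, Ccdc39 (-0.73 ± 0.13), a count close to the share of all genes. Their summed level of 987 to 1620 in transgenic arrays overlapped the wild-type range of 1260 to 2990. Of 7 goblet and 7 basal cell markers 0 passed. The part of these cell types in the Aqp4 result was not tested.

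Aqp5, the water channel of the alveolar surface, was lower in both transgenic arrays without passing the test. It read 10.85 and 10.77 on transgenic arrays, against 11.09, 11.19, 11.79 and 11.72 on wild-type arrays. The groups did not overlap, but the wild-type arrays were themselves spread over 0.70, with replicates 1 and 2 nearer to the transgenic values than replicates 3 and 4. The same arrays parted in the summed neutrophil markers, at 1910 and 1480 on replicates 1 and 2 and 3840 and 4180 on replicates 3 and 4. The transgenic sums were 3990 and 3020. S100a8 made up 57.0% of the wild-type sum and parted this way (10.10 and 9.71 against 11.10 and 11.21). Not every marker did, as Csf3r read 4.78 and 5.40 against 5.67 and 4.62. Neutrophil markers were not alone in parting these wild-type arrays. Red cell marker sums were 1470 and 1690 on replicates 1 and 2 against 854 and 966 on replicates 3 and 4. Basal cell marker sums were 206 and 203 against 304 and 295, and smooth muscle marker sums 3090 and 4200 against 4680 and 4350. The part of any of these cell types in the Aqp5 values was not tested. The log2 difference was -0.64 ± 0.21, or 1.56-fold, with a limma adjusted p of 0.094 over all probe sets and 0.0702 over all genes. Over all genes it passed without wild-type replicate 1 (-0.76, limma adjusted p = 0.0452) or wild-type replicate 2 (-0.73, 0.0457). It did not pass without wild-type replicate 3 (-0.53, 0.13) or 4 (-0.55, 0.109). Over all probe sets it did not pass without wild-type replicate 1 (limma adjusted p = 0.0621) or 2 (0.0701) either. Of 10 alveolar type I markers 8 fell and 0 rose, with a median of -0.69. The fallen markers included Hopx (-0.89 ± 0.11), Akap5 (-1.02 ± 0.13) and Rtkn2 (-0.90 ± 0.14), while Pdpn gave 0.11 ± 0.11. The summed level of the list was 55300 to 62100 in transgenic and 83600 to 89300 in wild-type arrays, and its part in the Aqp5 values was not tested.

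Aqp1, the water channel of lung capillaries and red cells, varied more among wild-type arrays than between the groups. It read 11.83 and 11.34 on transgenic arrays, against 11.14, 12.19, 12.56 and 12.44 on wild-type arrays 1 to 4. Wild-type replicate 1 lay below both transgenic arrays, and the other wild-type arrays lay above both. The difference of -0.50 ± 0.36 did not pass (limma adjusted p = 0.453), and without wild-type replicate 1 it was -0.81 and passed (0.0429). Without transgenic replicate 2 the Aqp1 difference was -0.25 (limma adjusted p = 0.841), and without wild-type replicates 2 and 4 it was -0.27 (0.780). Of 10 endothelial markers 5 fell and 0 rose, among them Cdh5 (-1.12 ± 0.10) and Tek (-1.31 ± 0.16), with a summed level of 7380 to 8340 in transgenic and 12500 to 16700 in wild-type arrays. On that sum wild-type replicate 1 (14500) did not stand apart. Of 6 measured red cell markers 1 rose and 1 fell, and 4 lay below the array median on every array. The risen one, Hba-a1, was among those 4, at 3.85 and 3.92 in transgenic and 3.21 to 3.52 in wild-type arrays. Alas2, which made up 90.0% of the wild-type sum, fell by 1.31 (SE 0.28). The part of endothelial or red cells in the Aqp1 values was not tested.

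**Figure D2:**
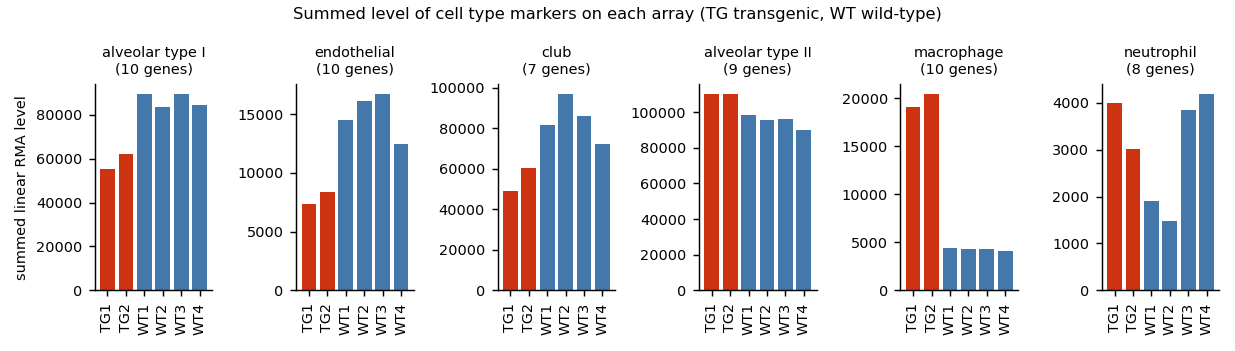
Summed linear RMA level (vertical axis from 0, a separate scale for each panel) of the markers of 6 cell types on each array, with transgenic arrays (TG1, TG2) in red and wild-type arrays (WT1 to WT4) in blue. The macrophage sum is higher on both transgenic arrays, the alveolar type I, endothelial and club cell sums are lower, and the neutrophil sums overlap.

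Sequences upstream of the start sites are shown for Aqp9, whose level rose, and for Aqp5 and Aqp3, which did not pass. The RefSeq (GRCm38.p6) promoter entries used here covered 5 of the 8 genes with 6 start sites, 2 of them for Aqp9. No entry was at hand for Aqp4, Car2 or Car8. The 100 bases before each start site are printed 5′ to 3′ along the gene, with capitals marking a GC box (GGGCGG, or CCGCCC on the other strand) or a TATA box (TATAAA). The windows are chr9:71163290-71163389 and chr9:71162634-71162733 (minus strand, both within the Aqp9 locus), chr15:99590928-99591027 (plus strand, next to Aqp5) and chr4:41098184-41098283 (minus strand, next to Aqp3). The Aqp9 locus runs to chr9:71167849, so first and second give only the order of these 2 entries along the gene.
Aqp9 first start: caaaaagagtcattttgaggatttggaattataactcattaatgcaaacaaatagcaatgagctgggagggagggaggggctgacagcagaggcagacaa
Aqp9 second start: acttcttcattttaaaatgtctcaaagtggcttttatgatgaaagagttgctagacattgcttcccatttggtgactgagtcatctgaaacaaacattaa
Aqp5: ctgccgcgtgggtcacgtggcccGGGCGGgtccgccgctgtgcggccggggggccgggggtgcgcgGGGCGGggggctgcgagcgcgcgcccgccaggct
Aqp3: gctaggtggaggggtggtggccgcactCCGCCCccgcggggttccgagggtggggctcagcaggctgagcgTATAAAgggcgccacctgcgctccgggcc
Both Aqp9 windows of 250 bases were poor in G and C (40.4% and 41.6%), whereas that of Aqp5 was rich (78.4%). Over 250 bases, both strands searched, a GC box was found before Aqp1, Aqp3, Aqp5 and Car12 and in neither Aqp9 window, against 32.7% of all 32851 promoters. A TATA box was found before Aqp3 alone among the 6 (12.4% of all promoters). TTCNNNNGAA, the spacing that STAT6 of the IL13 pathway is known to bind, was found in 0 of the 6, against 5.85% of all promoters, and TTCNNNGAA in 0, against 7.02%. A CCAAT box (CCAAT, either strand) was also in 0 of the 6, against 33.8%. The called genes Aqp4, Car2 and Car8 had no window, and 6 windows are too few to be compared with these shares. No match of one motif overlapped a match of another in the 6 windows.

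Car2, the abundant and highly active cytosolic carbonic anhydrase, rose. It read 10.69 and 10.84 on transgenic arrays, against 9.66, 9.88, 9.73 and 9.36 on wild-type arrays. Both transgenic values lay above all wild-type values, by 0.81 at the closest. The difference was 1.11 ± 0.16, or 2.15-fold (limma adjusted p = 0.00299), and it ran from 1.01 to 1.18 with each array left out and passed each time. The q-value in the authors' deposited table was 0.101.

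Car8, a carbonic anhydrase-related protein without enzyme activity that binds the IP3 receptor, rose by all 3 of its probe sets. The brightest, 1427482_a_at, read 11.29 and 11.35 in transgenic arrays and 10.63, 10.79, 10.43 and 10.34 in wild-type arrays, a difference of 0.77 ± 0.14, or 1.7-fold (limma adjusted p = 0.0116). Probe set 1457904_at read 8.55 and 8.38 against 7.91, 7.82, 7.70 and 8.09 (0.58 ± 0.14, adjusted p = 0.0289), and 1424958_at read 6.63 and 7.01 against 5.84, 6.34, 6.27 and 5.63 (0.80 ± 0.22, adjusted p = 0.0487). In each of the 3 both transgenic values lay above all wild-type values.

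The Car8 differences kept their sign, but their calls depended on the arrays used. With each array left out 1427482_a_at ran from 0.70 to 0.85, 1457904_at from 0.50 to 0.67 and 1424958_at from 0.62 to 0.99. The call of 1427482_a_at ended without transgenic replicate 1 (0.80, limma adjusted p = 0.0855) or 2 (0.74, 0.0883). That of 1457904_at ended without transgenic replicate 1 (0.50, limma adjusted p = 0.206) or 2 (0.67, 0.0916) and likewise when wild-type replicate 1 (0.60, 0.0656), 2 (0.56, 0.0536) or 3 (0.52, 0.0622) was removed. That of 1424958_at ended without transgenic replicate 1 (0.99, limma adjusted p = 0.122) or 2 (0.62, 0.288) and likewise when wild-type replicate 1 (0.74, 0.113), 3 (0.88, 0.0529) or 4 (0.67, 0.0622) was removed. No sign changed. Accordingly 2 of the 18 probe sets (Aqp9 and Car2) rose without transgenic replicate 1 or without transgenic replicate 2, 3 without wild-type replicate 1 or 3, and 4 without wild-type replicate 2 or 4. Without wild-type replicate 1 there were 2 falls, Aqp4 and Aqp1.

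Car12, a membrane enzyme that faces the outside of the cell, gave no call. Its 3 probe sets read 3.05 to 4.11 on all arrays, below the array median, and the groups overlapped in each. The differences were -0.19 ± 0.15, 0.01 ± 0.22 and 0.21 ± 0.18, and the limma adjusted p was at least 0.473. At such levels a low amount of RNA and none cannot be distinguished.

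**Figure D3:**
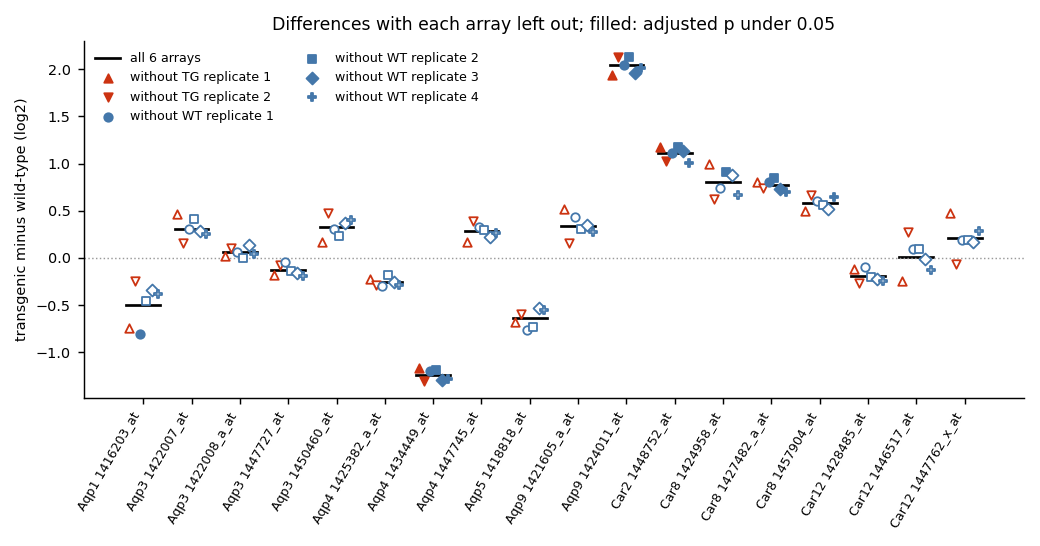
Transgenic minus wild-type difference (log2, vertical axis) of the 18 probe sets with all 6 arrays (black line) and with each array left out (red for a transgenic, blue for a wild-type array, shape for the replicate), filled where the adjusted p is under 0.05. Aqp4 1434449_at, Aqp9 1424011_at and Car2 stay filled in all 6 settings, and the Car8 probe sets keep their sign but lose calls.

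Read against their whole families, with each gene taken from its brightest probe set and p-values adjusted over all 18193 genes, the aquaporins mostly did not pass, and as many carbonic anhydrases passed as did not. Of 12 aquaporin genes 1 rose (Aqp9), 1 fell (Aqp4) and 10 did not pass, with a median log2 difference of -0.09, where 19.0% of all genes passed, 8.43% as higher and 10.5% as lower. Among the 7 aquaporins outside the set, 0 passed in limma and 0 reached an unadjusted p under 0.05, 5 lay below the array median on every array, and the differences ran from -0.26 (Mip) to 0.23 (Aqp12). Of 16 carbonic anhydrase genes 6 rose, 2 fell and 8 did not pass, with a median of 0.16 against 0.00 for all genes.

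The largest rises of the carbonic anhydrase family were in 2 genes outside the set. Car13, a cytosolic enzyme, read 6.98 and 6.50 in transgenic and 4.46, 4.35, 4.38 and 4.88 in wild-type arrays, a difference of 2.23 ± 0.19 or 4.69-fold (limma adjusted p = 0.000161), and 2 of its 3 probe sets passed over all probe sets. With its 3 probe sets averaged the Car13 difference was 1.38 and passed (limma adjusted p = 0.000148). Car6, the secreted enzyme known from saliva, read 5.47 and 6.56 against 3.93, 3.47, 3.86 and 3.70, a difference of 2.27 ± 0.27 or 4.83-fold (adjusted p = 0.00101). The wild-type values of both genes lay below the array median, so these differences may be understated. The 2 transgenic arrays differed by 1.09 for Car6, and without transgenic replicate 2 its difference was 1.73 and still passed, as it did without any other array.

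Smaller changes were found in 3 further enzymes, and those calls were less stable. Car4, the enzyme anchored on lung capillary endothelium, read 10.84 and 10.40 against 9.95, 10.01, 9.96 and 9.56 (0.75 ± 0.17, limma adjusted p = 0.0188), the opposite direction to the endothelial markers. It no longer passed once transgenic replicate 1 was removed (0.53, adjusted p = 0.170) and when its 2 probe sets were averaged (0.82, 0.0553). Car7, a cytosolic enzyme, rose by 0.74 ± 0.14 (adjusted p = 0.00787), a call that ended without transgenic replicate 1 (0.0637) or 2 (0.0605) and with its 3 probe sets averaged (0.27, 0.138), since the other 2 differed by 0.16 and -0.10. Car14, a membrane enzyme, read 6.05 and 6.45 against 6.88, 6.94, 6.94 and 6.52. It fell by 0.57 (SE 0.17, adjusted p = 0.0482), a call lost when transgenic replicate 1 (adjusted p = 0.332) or 2 (0.0577) or wild-type replicate 1 (0.106), 2 (0.0780) or 3 (0.107) was removed, and also with quantile normalization again (0.0667), centred arrays (0.0694) or an intensity trend (0.0537). The Car14 difference was -0.36 without transgenic replicate 1, and with adjustment over all probe sets Car14 did not pass (limma adjusted p = 0.0668).

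Car3, the enzyme of muscle and fat, fell, and the summed markers of those tissues were lower on the same arrays. Of 5 measured adipocyte markers 3 fell, and of 7 striated and cardiac muscle markers 4 fell. In both lists 0 rose, and the muscle gene Ckm gave 0.12 ± 0.17. By its brightest probe set Car3 read 10.18 and 4.33 in transgenic and 11.59, 10.75, 11.92 and 12.86 in wild-type arrays. The transgenic arrays themselves thus lay 5.85 apart (difference -4.52 ± 1.33, limma adjusted p = 0.0473). The summed level of adipocyte markers was 447 and 81 on transgenic arrays, against 645 to 3600 on wild-type arrays, and that of striated and cardiac muscle markers 1640 and 330 against 2740 to 10900. In both lists and in Car3 transgenic replicate 2 was lowest and wild-type replicate 4 highest. Without transgenic replicate 2 the Car3 difference was -1.60 and did not pass (0.186), without transgenic replicate 1 it was -7.45, and the call also ended without wild-type replicate 1 (0.0919), 3 (0.0935) or 4 (0.0799) and with robust moderation (0.144). Over all probe sets the brightest Car3 probe set did not pass (limma adjusted p = 0.0622), while 1 of the other 3 did (-2.59, 0.0261). With the 4 averaged the Car3 difference was -2.79 and passed (limma adjusted p = 0.0417 over all genes). The part of fat or muscle in the lobes was not tested.

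**Figure D4:**
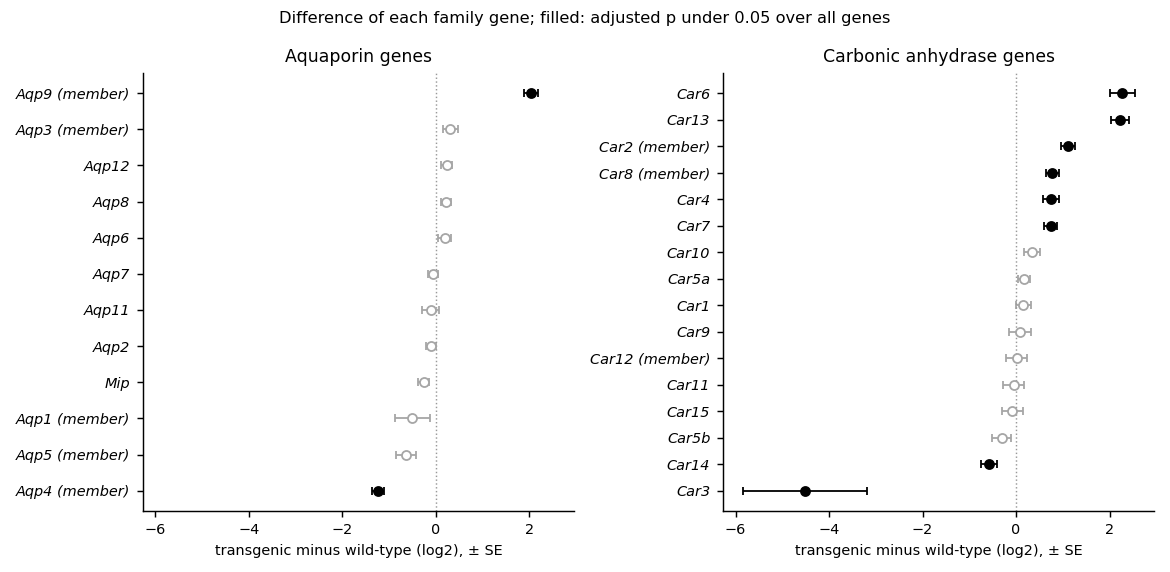
Transgenic minus wild-type difference (log2, horizontal axis) with its SE for the 12 aquaporin genes (left) and the 16 carbonic anhydrase genes (right), each read from its brightest probe set, filled where the adjusted p over all genes is under 0.05. Aqp9 and Aqp4 are the filled aquaporins, and 8 carbonic anhydrases are filled, 6 to the right of 0 and 2 to the left.

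Of 20 measured genes on a list of bicarbonate and proton transporters, channels and 2 scaffold proteins that bind such transporters (Slc9a3r1 and Slc9a3r2), 2 rose, 0 fell and 18 did not pass in limma (4 higher and 2 lower at an unadjusted p under 0.05), with a median of 0.15. Of all genes 8.43% rose and 10.5% fell, so the count on this list was close to the background for rises. The risen genes were Slc26a4, the anion exchanger pendrin (6.27 ± 0.42, limma adjusted p = 4.54e-05), and Slc4a2, a chloride-bicarbonate exchanger. Slc4a2 read 9.33 and 9.46 in transgenic and 8.44, 8.45, 8.55 and 8.62 in wild-type arrays, a difference of 0.88 ± 0.11 or 1.84-fold (adjusted p = 0.00127). The bicarbonate-permeable chloride channel gene Cftr did not pass (0.48 ± 0.18, adjusted p = 0.0982), nor did the sodium bicarbonate cotransporter gene Slc4a4 (-0.53 ± 0.21, 0.117). Without wild-type replicate 4 there were 5 rises and 1 fall on this list.

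The genes whose log2 values followed each called member most closely over the 6 arrays were found by the root mean square difference after centring each gene on its own mean. They were Acod1 (0.105) and Chil1 (0.106) for Aqp9, Rasal2 (0.054) and Nxpe3 (0.067) for Aqp4, Anxa4 (0.065) and Plaur (0.079) for Car2, and Bcl2l15 (0.046) and Nuf2 (0.052) for Car8. Chil1 rose from a mean of 12.14 to 14.14 and Rasal2 fell from 8.30 to 7.14. Bcl2l15 and Nuf2 lay below the array median on every array. Because each called member differed between the groups, this measure favours genes with a like group difference, such as Acod1 (2.09) for Aqp9 (2.04). Closeness by it is therefore no separate sign that 2 genes vary together.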

How the data were processed

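Lung RNA of 2 transgenic and 4 wild-type mice was measured on 6 arrays. The deposited log2 values were made by the authors with RMA, per the submitters' processing notes, which give no version. A further deposited table holds, per the file headers, a log2 fold change and a q-value per probe set, and no source used here names the test behind the q-value. Its 6 single-array columns match no sample label and were not used. Nothing was normalized again for the values reported first. In the platform annotation 34945 of 45037 probe sets had 1 symbol, 932 had more and 9160 had no symbol. Names were updated through the Entrez ID in RefSeq (34741 matched), and each of 18193 genes was read from its probe set with the highest mean.

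The groups entered limma (version 3.58.1, R 4.3.3, lmFit and eBayes without trend), once over all probe sets and once over all genes, with Benjamini-Hochberg adjustment and a threshold of 0.05. SEs are limma's moderated ones. With 1 transgenic array left out, the fit gives the lone one the spread of the wild-type group. Summed marker levels are sums of 2 raised to the log2 value. The number of arrays limits the precision. The calculation was tested on simulated data. Alternatives were a filter on low values (6 in at least 2 arrays), quantile normalization again, centring, an intensity trend, robust moderation, averaging of a gene's probe sets, a replicate block, and removal of each array in turn. Leaving out wild-type replicates 2 and 4 together was added after the data were seen.

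The members and lists were chosen with earlier results of these data known. Genes named are the members, other family genes past the threshold, up to 6 called transport genes, the 2 genes nearest to each called member (clone names passed over), Il13 and cell type markers. The other genes named (Mip, Aqp12, Cftr, Slc4a4) were chosen after their values were seen. Plots were made in Python 3.11.15 (matplotlib 3.10.9).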

Additional observations from a re-analysis of the deposited data

Results flagged for a closer look

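Among the 26 sets of 4 wild-type values examined, 3 held a single array far from the others, where chance gives about 1 in 20. For Car4 wild-type replicate 4 was low at 9.56 against 9.95 to 10.01, a gap of 0.867 of the whole range. For Car14 the same replicate was low at 6.52 against 6.88 to 6.94, a gap of 0.851 of the range. For Slc26a4 wild-type replicate 2 was high at 7.07 against 5.39 to 5.59, a gap of 0.879 of the range. None of the 18 member probe sets was among them.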

How the results depend on the processing

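Of 164 counts computed under another setting, 132 stayed within 1.5 times the count from all 6 arrays. Of 445 single differences so computed, 391 kept their sign and their side of the threshold, 34 lost a call, 5 gained one and 15 changed sign. With 1 array left out, rises and falls ran from 2 to 4 and from 1 to 2 among the 18 member probe sets, from 1063 to 2359 and from 594 to 2731 among all probe sets, from 2 to 3 and from 1 to 3 among the 8 member genes, from 1 to 1 and from 1 to 3 among aquaporin genes, from 3 to 6 and from 0 to 1 among carbonic anhydrase genes, and from 2 to 5 and from 0 to 1 among transport genes. The 2 falls among carbonic anhydrases were 1 with quantile normalization again, with centred arrays, with an intensity trend, with robust moderation and without wild-type replicates 2 and 4. Falls among transport genes were 1 with the filter on low values and 1 with an intensity trend. With the replicate number as a block, transport genes had 5 rises and 3 falls, and member probe sets 6 rises, the added one being Aqp3 1450460_at (0.50, limma adjusted p = 0.0495). No label says that same-numbered mice share a litter or day, so the number was not taken to pair them. Deviations of same-numbered arrays correlated at -0.106 and 0.244 across probe sets, but with 2 transgenic arrays these deviations mirror each other and do not decide it. The sign turned for 3 probe sets, none of which passed with all 6 arrays. Car12 1446517_at gave -0.04 with quantile normalization, -0.00023 with centring, -0.23 with the block, -0.09 without wild-type replicates 2 and 4, and -0.25 to 0.27 with 1 array left out. Car12 1447762_x_at ran from -0.06 to 0.48 with 1 array left out, and Aqp3 1422008_a_at was -0.05 without wild-type replicates 2 and 4. The cause of these changes was not tested. Signal near the array floor limits Aqp3, Car12 and the dimmer probe sets of Aqp4 and Aqp9.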
